A study of Mus musculus with 17 samples.

Results

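Genes of the nuclear pore and of nuclear transport were compared between antibody-secreting cells (ASCs) of the bone marrow of aged and young mice. A gene belonged to this group if its symbol in the platform annotation began with Nup and a digit, or with Kpna, Kpnb, Xpo, Ipo, Tnpo or Ranbp, or was Ran, Rangap1 or Rcc1. This rule took 80 of 45281 probes and 49 of 12989 named genes. It used no measured value, but it was chosen with earlier results of these data known. No probe carried the name Tpr, which the rule also covers, in the annotation used here.

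Cells were sorted as ASCs from hind leg marrow of aged mice, over 17 months of age (6 samples), and of young mice aged 6 to 8 weeks (9 samples), and their RNA was measured on 17 Illumina MouseWG-6 v2 arrays, with young samples 3 and 4 on 2 arrays each. The labels name no strain, transgene or treatment, and they call the cells B cells. Some samples pool several mice, which samples these are is not given, and the study names more aged mice than there are aged samples, so that pooling cannot be told apart from age. The labels also do not say which samples come from separate mice, so p-values measure the spread between samples, which may in part be technical.

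A sample had 10401 to 17120 detected probes in the aged group (median 12506) and 8998 to 15864 in the young group (median 12368). Between 31 and 42 of the 49 genes were detected in an aged sample (median 34) and between 23 and 38 in a young sample (median 32). Young sample 2 had the lowest mean correlation with the other samples (0.820), and the lowest in the aged group was that of aged sample 2 (0.840), while the highest in the series was 0.897. Plasma cell genes were measured in every sample, with summed signals of 24794 to 45005 in aged and 18091 to 25379 in young samples over 16 genes. The files name no chip or slide, so that these could not be examined as batches.

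The nuclear pore is a large ring of nucleoporins set in the nuclear envelope, with an inner ring and outer Y-shaped complexes as its scaffold, filaments toward the cytoplasm and a basket toward the nucleus. Importins and exportins carry proteins and RNA through it, and the small GTPase Ran gives this traffic its direction, because Rcc1 loads Ran with GTP on chromatin and Rangap1, with Ranbp1, has the GTP hydrolyzed in the cytoplasm. In ASCs, which make secreted immunoglobulin in bulk, mRNA leaves and transcription factors enter the nucleus through these pores.

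Promoters are shown for Rcc1, Nup205 and Ran, because these were the members whose difference between aged and young ASCs passed the test across all probes. Each is 300 bases around the start of the gene, from RefSeq on GRCm38.p6, written 5′ to 3′ on the strand of the gene, with capitals for GC boxes (GGGCGG on either strand) and E-boxes (CACGTG). They lie at chr4:132345701-132346000 on the minus strand for Rcc1, at chr6:35177366-35177665 on the plus strand for Nup205 and at chr5:129019906-129020205 on the plus strand for Ran.
Rcc1: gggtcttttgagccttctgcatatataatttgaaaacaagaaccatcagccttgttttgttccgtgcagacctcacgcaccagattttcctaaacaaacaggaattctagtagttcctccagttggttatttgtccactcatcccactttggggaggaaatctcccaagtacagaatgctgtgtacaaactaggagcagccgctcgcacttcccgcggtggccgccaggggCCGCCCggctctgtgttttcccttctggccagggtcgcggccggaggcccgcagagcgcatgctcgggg
Nup205: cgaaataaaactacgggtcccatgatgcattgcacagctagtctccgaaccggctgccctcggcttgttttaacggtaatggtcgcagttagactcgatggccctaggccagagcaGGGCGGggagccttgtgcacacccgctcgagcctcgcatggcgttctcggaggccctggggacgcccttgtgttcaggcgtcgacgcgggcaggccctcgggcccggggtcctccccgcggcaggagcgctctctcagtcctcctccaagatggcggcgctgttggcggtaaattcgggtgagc
Ran: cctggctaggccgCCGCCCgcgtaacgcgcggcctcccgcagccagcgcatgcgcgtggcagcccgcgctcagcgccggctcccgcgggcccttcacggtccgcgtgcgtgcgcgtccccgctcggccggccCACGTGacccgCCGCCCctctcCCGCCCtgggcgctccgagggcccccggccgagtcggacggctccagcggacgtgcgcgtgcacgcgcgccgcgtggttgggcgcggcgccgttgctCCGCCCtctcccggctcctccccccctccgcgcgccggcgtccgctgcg

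The Ran promoter was 82.0% G and C, with 58 CpG dinucleotides, 4 GC boxes and 1 E-box. That of Nup205 was 64.3% G and C with 28 CpG dinucleotides, and that of Rcc1 54.3% with 15, each with 1 GC box and without an E-box. No marked motifs overlapped. RefSeq promoters were found for 39 of the 49 genes, and their median G and C content was 64.3%, against 52.7% over all 27025 genes with a promoter. A GC box was present in 71.8% of the 39 promoters and in 35.9% of all, and an E-box in 23.1% and 7.24%. CCAAT occurred in 48.7% of them and 37.9% of all, and the ETS core CCGGAAG in 17.9% and 9.12%. The E2F element TTTCCCGC was in 2 of the 39, those of Nup210 and Ranbp1 (5.13%, against 1.11% of all), and TTTGGCGC in 0 of the 39 (0.537% of all). All were searched on both strands. These matches describe the letters of the windows, which differ in base composition between the sets, and binding was not measured.

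Probes entered the test with detection in 8 or more of the 15 samples and a range of 1.2-fold or more. This kept 37 of the 49 genes, each counted by its brightest tested probe, and 10 of the 37 were detected in all 15 samples. The filter is not symmetric, because a gene detected in the 9 young samples alone could pass and one detected in the 6 aged samples alone could not. Levels are log2 of quantile normalized signals, and differences are log2 fold changes, aged minus young, from limma with Benjamini-Hochberg adjustment over all 11073 tested probes. Signals of different probes are not compared with each other.

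Rcc1, Nup205 and Ran were lower in aged ASCs and passed the adjusted threshold of 0.05, which makes 3 of the 37 genes (8.11%). Over all 6289 named genes tested, 0.382% were lower at this threshold. The study had already listed the probes of these 3 genes as lower in aged ASCs, from the same data. None of the 37 was higher at an adjusted p under 0.05, against 1.13% of all genes. At an unadjusted p under 0.05, 6 of the 37 were lower, where 5.8% of all genes were, and 0 were higher, where 9.03% of all genes were. The mean was lower in aged ASCs for 25 and higher for 12, so that 67.6% were lower, against 51.4% of all genes. The median log2 fold change was -0.12 over the 37 genes and -0.01 over all genes. For none of the 37 did all aged samples lie below all young samples, which held for 0.207% of all genes. In these bulk samples, fewer cells of a type and less RNA per cell cannot be told apart.

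These calls depended on the filter, on scaling and on single samples. Without a filter 0 of the 49 passed, with adjusted p-values of 0.166 for Rcc1, 0.0898 for Nup205 and 0.172 for Ran, and 7 lower and 38 higher probes passed in all. When arrays were scaled to their 75th percentile, 0 of the 37 passed and 3 were lower at an unadjusted p under 0.05, while the calls over all probes moved to 7 lower and 82 higher, from 36 lower and 117 higher with quantile normalization. Without aged sample 1, 3 or 6, 0 passed, where 10 to 14 lower and 30 to 58 higher probes passed over the whole array. Without aged sample 4 (Rcc1), aged sample 5 (Nup205), young sample 3 (Rcc1) or young sample 4 (Rcc1), 1 passed, where 16 to 22 lower and 71 to 85 higher probes did. Without aged sample 2, 5 passed, the other two being Ranbp1 and Nup210, and the calls over all probes grew likewise, to 64 lower and 253 higher. Without aged sample 2 and young sample 2 together 5 passed as well, beside 137 lower and 297 higher probes in all. The median of the group stayed below 0 in all 25 alternatives tried.

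**Figure D1:**
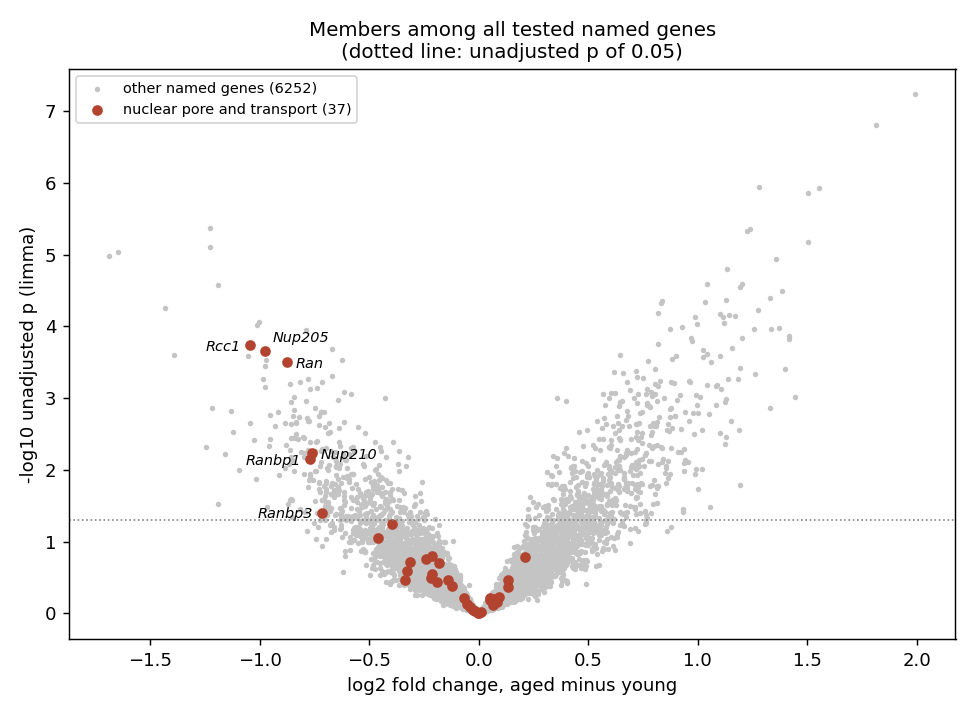
Log2 fold change (aged minus young, x axis) against -log10 of the unadjusted limma p (y axis) for 6289 named genes, with the 37 nuclear pore and transport genes in red. All 6 red points above the dotted line at p of 0.05 lie on the left, where aged ASCs had the lower signal.

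Of the 6 genes lower at an unadjusted p under 0.05, 4 belonged to the Ran cycle. All 5 genes of the cycle had a lower mean in aged ASCs, where 51.4% of all genes did. Of the 5, 2 were lower past the adjusted threshold, where 0.382% of all genes were. The median log2 fold change of the 5 was -0.77.

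Rcc1, the exchange factor that loads Ran with GTP on chromatin, had log2 signals of 9.98, 10.54 and 11.70 in aged samples (lowest, median and highest) and of 11.42, 11.75 and 12.09 in young samples. Of the 6 aged samples 5 lay below every young sample, and the remaining one, aged sample 2, lay among the young. The mean log2 signal was 10.67 ± 0.66 (SD, n = 6) in aged and 11.71 ± 0.22 (SD, n = 9) in young ASCs, a log2 fold change of -1.04 (SE 0.23, limma adjusted p = 0.0252), or 48.5% of the young signal. Its spread among aged samples was wider than among young ones. The difference stayed below 0 in all 27 alternatives, with adjusted p-values up to 0.272. With 1 sample left out, limma adjusted p-values were 0.00229 to 0.0849.

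Ran itself had log2 signals of 8.84, 9.10 and 9.70 in aged samples (lowest, median and highest) and of 9.61, 10.12 and 10.75 in young samples. Again 5 of 6 aged samples lay below every young sample, and aged sample 2 overlapped with the lowest young samples, 7 and 8. The log2 fold change was -0.88 (SE 0.20, limma adjusted p = 0.0318), which puts aged ASCs at 54.4% of the young signal. Ran has 3 probes. The other tested one, detected in 3 aged and 8 young samples, differed by -0.45 on the log2 scale (limma adjusted p = 0.131). That probe met the filter mainly through the young group, where it is higher. The third, detected in 1 aged and 1 young sample, was not tested and differed by -0.19. The call on the brightest probe was lost in 13 of 27 alternatives, with adjusted p-values up to 0.251, and the direction in none. With 1 sample left out, limma adjusted p-values were 0.0113 to 0.0908.

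Ranbp1, which helps to release Ran from transport receptors and to hydrolyze its GTP, had log2 signals of 9.67, 10.91 and 11.89 in aged samples and of 11.09, 11.54 and 11.90 in young samples (lowest, median and highest). The young samples lay close together, while the aged ones spread over more than 2 log2 units, with samples 4 and 6 lowest and sample 2 as high as the highest young sample. The log2 fold change was -0.77 (SE 0.26, unadjusted p = 0.00715, limma adjusted p = 0.157), and without aged sample 2 it was -0.996 (adjusted p = 0.0209). Leaving out 1 sample at a time gave -0.996 to -0.55, with limma adjusted p-values of 0.0209 to 0.344.

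Ranbp3, a cofactor of export by Xpo1, had log2 signals of 7.75, 8.07 and 9.38 in aged samples and of 7.94, 9.18 and 10.17 in young samples (lowest, median and highest). The groups overlapped widely, and the probe was detected in only 3 of 6 aged and 7 of 9 young samples. It met the filter mainly through the young group, where it is higher. The log2 fold change of -0.72 (SE 0.33) had an unadjusted p of 0.0397 and an adjusted p of 0.325 from limma, and with normexp background correction it was -1.41 (adjusted p = 0.342). A second probe of Ranbp3, detected in 2 aged and 5 young samples, was not tested and differed by -0.05.

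Rangap1, the protein that activates the GTPase, had log2 signals of 10.68, 11.15 and 11.78 in aged samples and of 11.28, 11.52 and 12.16 in young samples (lowest, median and highest). Aged samples 2 and 4 lay among the young and the other 4 below all of them. Its 2 tested probes gave log2 fold changes of -0.40 (limma adjusted p = 0.374) and -0.37 (adjusted p = 0.373), neither past the threshold.

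**Figure D2:**
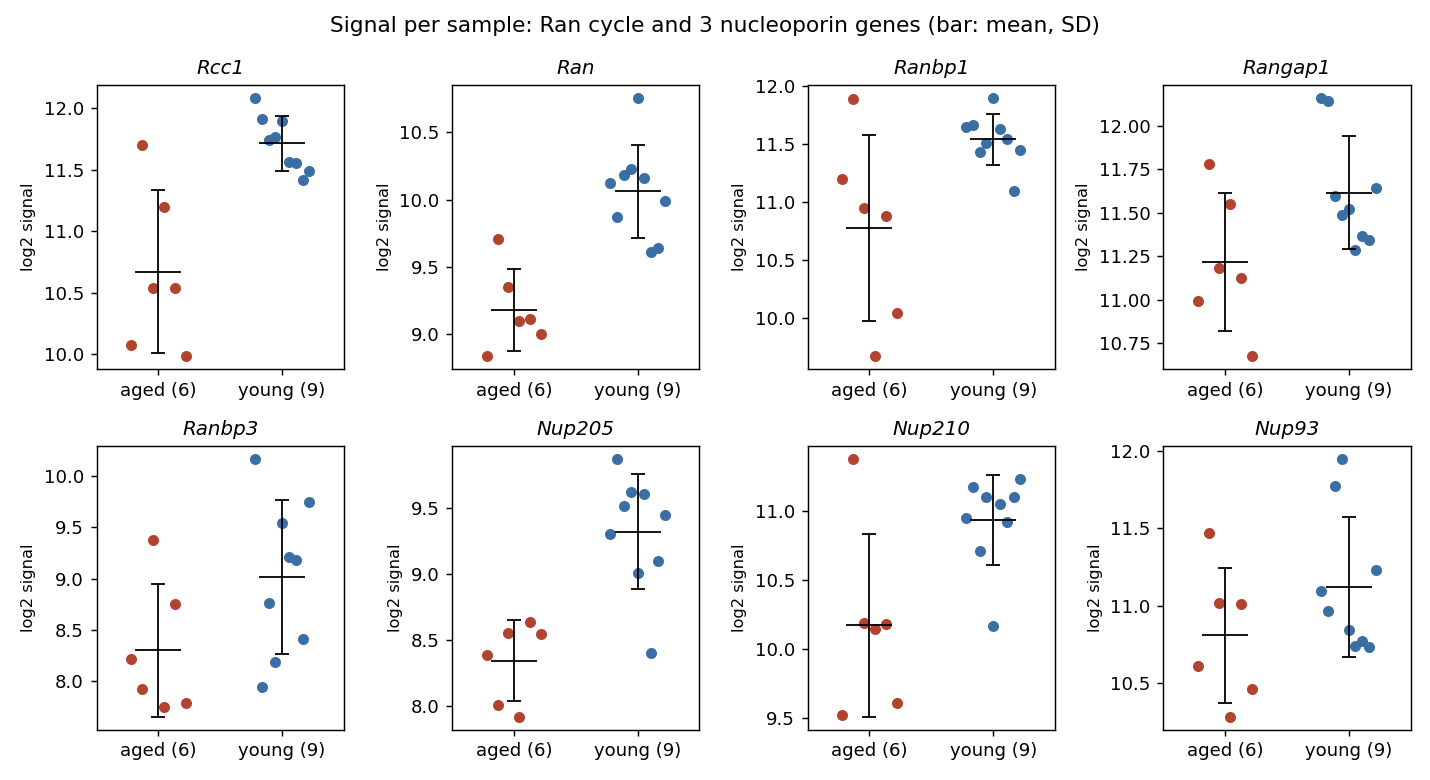
Log2 signal (y axis) in each aged (red, 6 samples) and young (blue, 9 samples) sample for the 5 genes of the Ran cycle and for Nup205, Nup210 and Nup93, with the mean and SD as bars and points in the order of sample number. For Rcc1 and Ran 5 of 6 aged samples lie below every young sample, and aged sample 2 is the highest aged sample for 4 of the 5 Ran cycle genes.

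Aged sample 2 was the highest of the aged samples for 4 of the 5 genes of the Ran cycle (Rcc1, Ran, Ranbp1 and Rangap1) and for 18 of the 37 tested genes. It also had the highest summed signal of the aged samples on the proliferation list (16057) and on the list of B cell precursors (5275), and the lowest on the plasma cell list (24794). The part of these differences in the levels of the transport genes was not tested.

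In the scaffold of the pore, all 4 genes of the inner ring had a lower mean in aged ASCs, where 51.4% of all genes did. The median log2 fold change of the 4 was -0.32, and 1 of them passed the test. Nup205, a large scaffold protein of the inner ring, had log2 signals of 7.92, 8.47 and 8.64 in aged samples and of 8.40, 9.45 and 9.87 in young samples (lowest, median and highest). All aged samples lay below the young median, and 8 of 9 young samples lay above every aged one, with young sample 7 the exception. The mean log2 signal was 8.35 ± 0.31 (SD, n = 6) in aged and 9.32 ± 0.44 (SD, n = 9) in young ASCs.

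The log2 fold change of Nup205 was -0.98 (SE 0.22, limma adjusted p = 0.027). The probe was detected in 4 of 6 aged and 9 of 9 young samples. It met the filter mainly through the young group, where it is higher. The aged level lies near background, and the size of the difference depends on how background is treated. With normexp background correction it was -1.99 (adjusted p = 0.0266). Its direction held in all 26 alternatives, with adjusted p-values up to 0.0948. With 1 sample left out, limma adjusted p-values were 0.00934 to 0.0744. The 3 other genes of the ring did not pass the test. Nup93, which links the ring to the channel, had log2 signals of 10.28, 10.81 and 11.47 in aged and of 10.73, 10.96 and 11.95 in young samples (lowest, median and highest), with overlapping groups and a log2 fold change of -0.31 (limma adjusted p = 0.6). Nup188, the structural relative of Nup205, differed by -0.33 with a 95% interval of -0.91 to 0.25, and Nup155 by -0.24 with an interval of -0.60 to 0.12.

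Nup210, a nucleoporin that spans the membrane of the envelope, had log2 signals of 9.53, 10.16 and 11.38 in aged samples and of 10.17, 11.05 and 11.23 in young samples (lowest, median and highest). Aged sample 2 was above every young sample and young sample 5 was level with the middle of the aged group, while the other samples kept apart. The log2 fold change was -0.76 (SE 0.25, unadjusted p = 0.00593, limma adjusted p = 0.142), and it was -1.004 (adjusted p = 0.0112) without aged sample 2. Leaving out 1 sample at a time gave Nup210 values of -1.004 to -0.632, with limma adjusted p-values of 0.0112 to 0.308. Its relative Nup210l differed by -0.04, with a 95% interval of -0.39 to 0.31.

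In the Y complex, the outer scaffold, differences were small. Its 5 tested genes, Nup107, Nup133, Nup160, Nup85 and Nup43, had log2 fold changes of -0.21 to 0.05 with a median of -0.02, and 0 had an unadjusted p under 0.05. Nup107 had log2 signals of 8.27, 8.58 and 8.69 in aged and of 8.46, 8.69 and 8.95 in young samples (lowest, median and highest). Of the 6 aged samples 5 lay below the young median, and 4 of 9 young samples lay above every aged one.

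Of the nucleoporins of the channel and of the faces of the pore, 0 had an unadjusted p under 0.05. Nup62, which fills the central channel with its phenylalanine-glycine repeats, had log2 signals of 8.55, 9.26 and 9.49 in aged and of 9.03, 9.36 and 9.69 in young samples (lowest, median and highest), a log2 fold change of -0.21 (limma adjusted p = 0.686). Nup88, of the cytoplasmic face, had log2 signals of 8.81, 9.27 and 9.89 in aged and of 9.10, 9.68 and 10.08 in young samples. It differed by -0.22 on its brightest probe and by -0.10 to 0.08 on its 3 other tested probes, with an adjusted p of 0.72 or more for each.

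Nup153, of the nuclear basket, had log2 signals of 8.09, 8.61 and 9.17 in aged and of 8.33, 8.53 and 8.74 in young samples (lowest, median and highest). Its aged samples lay on both sides of the young group, with 2 below and 2 above all of it, and the log2 fold change was 0.09. Ranbp2, the main protein of the cytoplasmic filaments, differed by 0.01, with a 95% interval of -0.49 to 0.51, and by 0.27 on its other tested probe. Of all 14 tested genes named Nup, 12 had a lower mean in aged ASCs, where 51.4% of all genes did. The median log2 fold change of the 14 was -0.21, but Nup205 was the only one past the adjusted threshold.

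**Figure D3:**
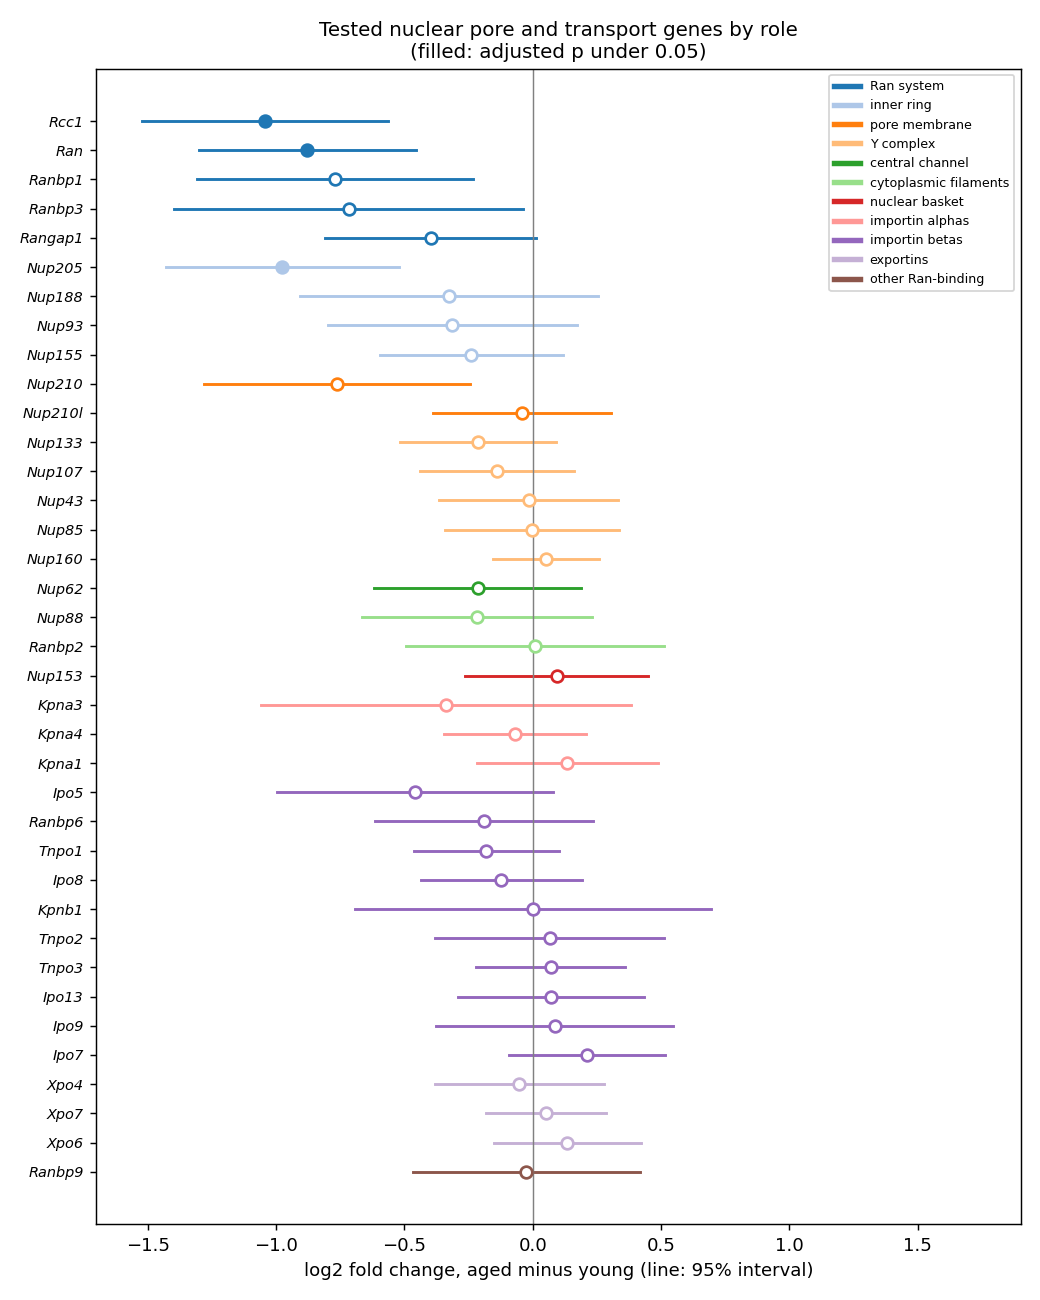
Log2 fold change (aged minus young, x axis) with its 95% interval for the brightest tested probe of each of the 37 genes. Genes are grouped by role, with filled points for an adjusted p under 0.05. The 3 filled points are Rcc1, Ran and Nup205, and the intervals of all tested importins, exportins and Y complex genes span 0.

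The transport receptors showed no common direction. Of 22 importins and exportins, 16 were tested, 7 with a lower mean in aged ASCs, and their median log2 fold change was 0.03. On the brightest tested probes, the smallest unadjusted p among them was 0.0898 from limma, that of Ipo5, against 6 genes under 0.05 among the 37.

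Ipo5, an importin of the beta family, had log2 signals of 7.88, 8.70 and 9.42 in aged samples and of 8.61, 9.33 and 9.85 in young samples (lowest, median and highest). Of the 6 aged samples 3 lay below all young ones and the rest among them, and the log2 fold change was -0.46 (limma adjusted p = 0.446), or -0.94 (adjusted p = 0.42) with normexp background correction. Its second tested probe, detected in 1 aged and 8 young samples, also differed by -0.46 (unadjusted p = 0.00925, adjusted p = 0.172). That probe met the filter mainly through the young group, where it is higher.

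The 9 other tested genes of this family lay between -0.19 (Ranbp6, a relative of Ipo5) and 0.21 (Ipo7). Kpnb1, importin beta 1 and the partner of the alpha importins, differed by 0.00, but with a wide 95% interval of -0.69 to 0.70. Intervals were narrower for Tnpo1, the receptor of many RNA-binding proteins (-0.46 to 0.10), and for Tnpo3, which imports splicing factors (-0.22 to 0.36).

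Among the importins alpha, the adaptors that bind the import signal, Kpna3 had log2 signals of 8.00, 8.32 and 10.49 in aged and of 8.23, 9.31 and 10.05 in young samples (lowest, median and highest). Aged sample 2 was its highest sample of all, and the log2 fold change of -0.34 had an adjusted p of 0.732 from limma. With normexp background correction it was -0.90 (adjusted p = 0.579). Kpna1 differed by 0.13 and Kpna4 by -0.07.

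Of the exportins, Xpo7 had log2 signals of 8.18, 8.34 and 8.56 in aged and of 8.08, 8.29 and 8.60 in young samples (lowest, median and highest), and a log2 fold change of 0.05. Xpo6, the exporter of actin, differed by 0.13 with a 95% interval of -0.15 to 0.42, and Xpo4 by -0.05 with an interval of -0.38 to 0.28. Ranbp9, a scaffold protein that is not part of the transport cycle, had log2 signals of 7.75, 8.68 and 8.96 in aged and of 7.98, 8.49 and 9.13 in young samples and differed by -0.02. Of all 37 tested genes, 16 had an interval within 0.5 of 0 on both sides, so that a log2 change larger than this lies outside their intervals, and the others allow one.

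**Figure D4:**
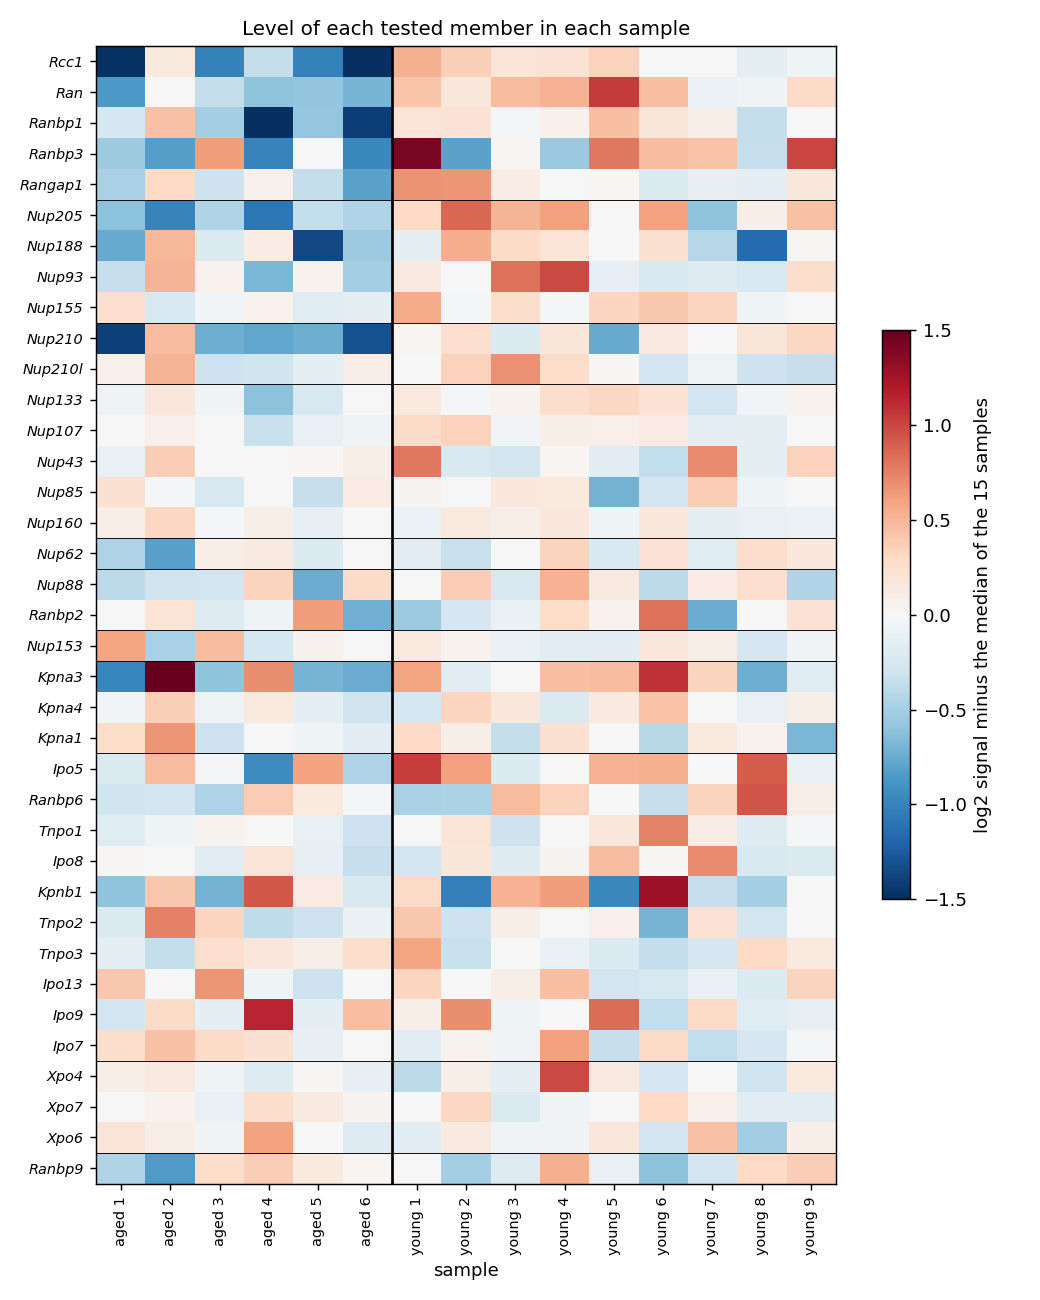
Log2 signal of each tested gene (rows, by role) in each aged (left) and young (right) sample, as the difference from that gene's median over the 15 samples. The rows of Rcc1, Ran, Nup205 and Nup210 are blue in most aged columns, aged sample 2 is red or pale in most of the Ran cycle rows, and the importin and exportin rows have no common color by age.

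The 12 genes without a tested probe were Nup37, Nup50, Nup54, Nup98, Nup214, Xpo1, Xpot, Kpna2, Kpna6, Kpna7, Ipo4 and Ranbp10. They were detected in 1 to 7 of the 15 samples and had log2 fold changes of -0.16 to 0.58, 5 lower and 7 higher in aged ASCs. Xpo1, the major exporter of proteins, was detected in 0 aged and 2 young samples, so that its log2 fold change of -0.12 rests on signals at background.

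Kpna7, an importin alpha known from oocytes, was detected in 5 of 6 aged and 1 of 9 young samples and had log2 signals of 7.89, 8.33 and 9.44 in aged and of 7.66, 7.83 and 8.43 in young samples (lowest, median and highest). All aged samples were above the young median and aged sample 6 stood highest, while 4 of 9 young samples lay above the lowest aged one. In a fit over all probes without a filter, its log2 fold change was 0.58 (unadjusted p = 0.00401, limma adjusted p = 0.353). Nup214, the partner of Nup88, was detected in 4 aged and 3 young samples and differed by 0.46 in the same fit (unadjusted p = 0.0769). Its second probe, detected in 0 aged and 2 young samples, differed by -0.11. Nup214 was named, like Kpna7, after its values were seen.

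Genes of the same machinery that the rule leaves out were followed as lists. Of the 9 further pore components 6 were tested, and 0 passed an adjusted p under 0.05 from limma in either direction. At an unadjusted p under 0.05, 1 was higher, where 9.03% of all genes were. This was Gle1, which acts in the last step of mRNA export, with log2 signals of 8.09, 8.45 and 9.68 in aged and of 7.97, 8.25 and 8.49 in young samples (lowest, median and highest) and a log2 fold change of 0.47 (adjusted p = 0.275). Of 7 further transport factors 5 were tested and 0 had an unadjusted p under 0.05. The smallest p was that of Senp2, a SUMO protease found at the pore, with a log2 fold change of 0.42 (adjusted p = 0.428).

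Of 12 mRNA export adaptors 8 were tested, 7 of them with a lower mean in aged ASCs, where 51.4% of all genes had one. The median log2 fold change of the 8 was -0.27. Again 0 passed an adjusted p under 0.05. At an unadjusted p under 0.05 from limma 2 were lower, Mcm3ap and Thoc3, where 5.8% of all genes were. Mcm3ap, whose protein brings mRNA to the pore, had log2 signals of 7.78, 8.12 and 8.74 in aged and of 8.11, 8.77 and 9.45 in young samples (lowest, median and highest). All 6 aged samples were below the young median, and the log2 fold change was -0.64 (adjusted p = 0.119). The probe was detected in 2 of 6 aged and 8 of 9 young samples, so that it met the filter mainly through the young group, where it is higher.

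Markers of proliferation and of other cell types were measured in the same samples. Proliferation genes summed to 12219 to 16057 in aged samples (median 12651) and to 15990 to 21735 in young samples (median 19329), and the single overlap was between aged sample 2 and young sample 8. On this list 21 of 22 genes had a lower mean in aged ASCs. Of 19 tested, 1 was lower past the adjusted threshold, where 0.382% of all genes were. At an unadjusted p under 0.05 from limma, 11 of the 19 were lower and 1 was higher, against 5.8% and 9.03% of all genes. The median log2 fold change of the 19 was -0.58. Genes of B cell precursors summed to 3931 to 5275 in aged and to 6283 to 9847 in young samples, without overlap. The mean was lower for 9 of 11, and 5 of 8 tested were lower past the threshold, against 0.382% of all genes. In 2 of the 8 all aged samples lay below all young samples, against 0.207% of all genes. Dntt, Igll1 and Rag1, among the 5, were detected in 2, 3 and 2 of 6 aged and in 9 of 9 young samples. They met the filter mainly through the young group, where they are higher. Plasma cell genes were higher in the mean in aged ASCs for all 16, and 3 of 14 tested passed, where 1.13% of all genes were higher.

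Summed signals of the lists for mature B cells, T cells, NK cells, neutrophils, monocytes, basophils, erythroid cells, platelets and plasmacytoid dendritic cells overlapped between aged and young samples. Those of neutrophil genes were 24077 to 50954 in aged and 25014 to 59230 in young samples, and those of T cell genes 2002 to 2677 in aged and 2002 to 3953 in young samples. The basophil and mast cell list, with sums of 1784 to 3855 in aged and 2111 to 4281 in young samples, had a lower mean in aged ASCs for 6 of 6 genes, and 2 of 5 tested were lower at an unadjusted p under 0.05, Prss34 (-0.75, p = 0.0103, limma adjusted p = 0.178) and Mcpt8 (-0.70, p = 0.0423, limma adjusted p = 0.333). On the other lists of this paragraph, Ngp (neutrophil, -0.46, limma adjusted p = 0.168) and Blk (mature B cell, -0.41, adjusted p = 0.246) were also lower at this unadjusted threshold. So was Siglech (plasmacytoid dendritic cell, -0.32, adjusted p = 0.334), while Prtn3 (neutrophil, 0.62, adjusted p = 0.0894) was higher. Of all genes, 5.8% were lower at this threshold and 9.03% higher. No marker on any list went undetected in every sample. The part of the marker lists in the lower Rcc1, Ran and Nup205 signals was not tested.

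**Figure D5:**
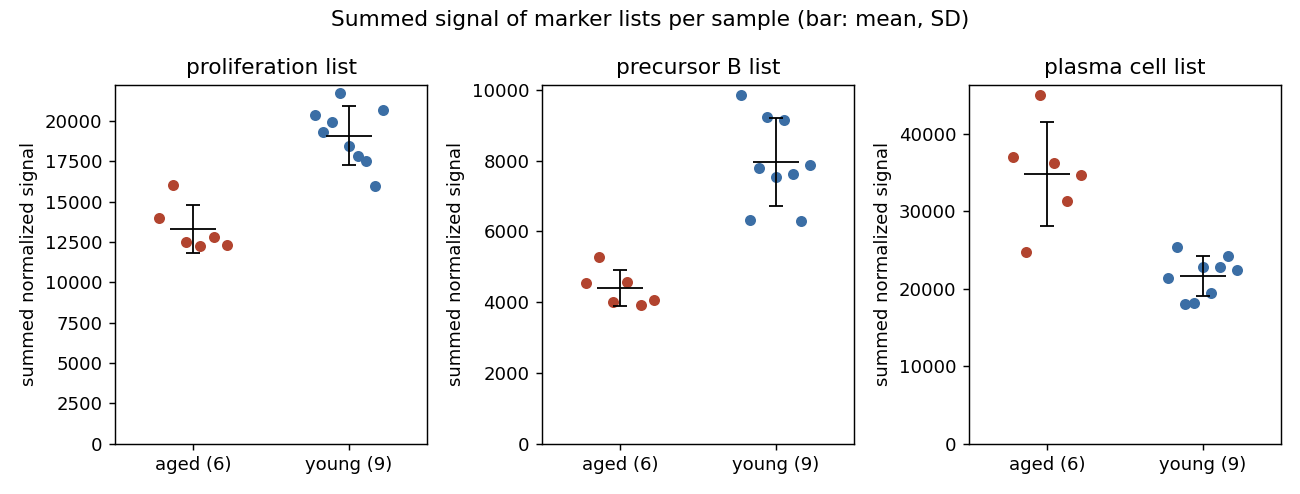
Summed normalized signal (linear scale, y axis) of the proliferation, B cell precursor and plasma cell lists in each aged (red, 6 samples) and young (blue, 9 samples) sample, with the mean and SD as bars and points in the order of sample number. Precursor sums do not overlap, and aged sample 2 has the highest aged proliferation and precursor sums and the lowest plasma cell sum of the aged group.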

How the data were processed

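The signals were deposited by the authors as intensity values, 1 average signal per probe and array, without background subtraction or normalization. A detection p-value per probe and array was deposited beside them. The authors also deposited quantile normalized intensity values for 26509 probes, after removing dim and nearly constant ones. Total RNA of sorted ASCs was amplified into cDNA, which was then labelled with biotin. The scanner software is not given in the sources used here.

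Signals were quantile normalized (limma 3.58.1, R 4.3.3), log2 transformed, and the 2 arrays of young sample 3 and of young sample 4 were averaged (correlations 0.925 and 0.920). A probe was detected in a sample at a detection p-value under 0.05 on any of its arrays. The groups were tested with lmFit, followed by eBayes with its trend option, two-sided, at a threshold of 0.05. Probes were named from the platform annotation, which gives 20873 of them 1 gene and 9 several. The number of arrays limits the precision. The procedure was tested on simulated data with independent noise in each probe. Those data hold no shift shared by the probes of a sample, so they cannot speak to the dependence on single samples. Figures were drawn with matplotlib.

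Members and gene lists were chosen with earlier results of these data known. Given with values were members past the threshold, up to 4 per role with the smallest unadjusted p under 0.05, the brightest member of each role, and from each list outside the rule the gene with the smallest p. Alternatives covered scaling, background correction, the authors' values, the filter, repeat arrays, the trend, array weights, the methods' t-test, the probe of a gene, a replicate block and leaving out samples.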

Additional observations from a re-analysis of the deposited data

Results flagged for a closer look

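In the 32 groups of values examined for the genes given in detail, 2 had a sample far from the rest, both for Nup210, and chance alone gives about 1 in 20. Aged sample 2 had a log2 signal of 11.38, where the next aged sample had 10.19, a gap of 0.641 of the range of the aged group. Young sample 5 had 10.17, where the next young sample had 10.71, a gap of 0.511 of the range of the young group. Without aged sample 2 the log2 fold change of Nup210 was -1.004 (limma adjusted p = 0.0112), and with all samples -0.76 (adjusted p = 0.142). Over the fits with 1 sample left out it was -1.004 to -0.632 (limma adjusted p = 0.0112 to 0.308).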

How the results depend on the processing

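Of the 37 tested genes, 0 passed with 75th percentile scaling, without a filter (49 tested) or with the replicate block, 5 with array weights, 5 by the methods' t-test at an unadjusted p under 0.05 (2 after Benjamini-Hochberg), and 5 without aged sample 2 and young sample 2 together, a setting chosen after seeing the data. Leaving out 1 sample gave 0 to 5. Of all probes, 89 passed with 75th percentile scaling, 45 without a filter, 702 with array weights, 1492 by the unadjusted t-test and 99 by the adjusted one, 55 with the replicate block, 434 without aged sample 2 and young sample 2, and 40 to 317 with 1 sample left out, against 153. The median log2 fold change of the members, -0.12, was -0.29 with normexp background correction and -0.36 over the 10 genes detected in all samples. It was -0.15 to -0.07 with 1 sample left out. Outside the rule 1 gene, Mcm3ap, passed with array weights, and 1 without aged sample 2 and young sample 2 together. With 1 sample left out the number was 0 to 1, and Mcm3ap passed without young sample 2. Normexp background correction also moved Nup62 to -0.40, Nup88 to -0.35 and Nup107 to -0.33, without a call. The cause of these shifts was not tested, except that fewer genes enter the stricter filter. No direction of Rcc1, Ran, Nup205, Nup210, Ranbp1, Ranbp3 or Rangap1 turned round. Same-numbered aged and young samples correlated at -0.10 to 0.23. The 2 of 6 that matched best with their own number were samples 1 (0.18) and 2 (0.23). Correlations of 6 pairs cannot decide whether equal numbers share processing, which was not otherwise tested. Genes near background, such as Xpo1 and Kpna7, have no reliable fold change.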
